A study of Mus musculus with 1 sample.

Results

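The genes described here were the D-type cyclins Ccnd1, Ccnd2 and Ccnd3, the kinases Cdk4 and Cdk6 that they activate, and 4 inhibitors of these complexes, Cdkn1a, Cdkn1b, Cdkn2c and Cdkn2d. They were chosen by symbol, and all 9 were found among the 32285 genes of a single-cell RNA-seq library of mouse bone marrow. The library came from a C57BL/6 control with the Brd9fl/fl allele and no Cre, so that the allele was left intact, and was made from lineage-negative, cKit+ cells of femora and tibiae. The control was given pIpC, a synthetic double-stranded RNA that induces interferon, at 20 mg/kg every other day for 3 doses from 4 weeks, and was sampled 8 weeks after pIpC. The labels name a CD45.2(+) donor and a CD45.1(+) CD45.2(-) recipient and count the 4 weeks from transplantation, while the series design speaks of primary mice and counts them from birth. Which of the descriptions holds for this library was not settled here, and neither the age at sampling nor the number of animals was given. Only 1 library was used, so no difference below has a replicate check and no test was made. All intervals are 95% intervals of counting error.

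D-type cyclins are made in response to growth signals and bind CDK4 or CDK6, and the active complexes phosphorylate the retinoblastoma family, which releases E2F factors and lets a cell pass from G1 into S phase. The INK4 proteins p18 (Cdkn2c) and p19 (Cdkn2d) bind the kinases and keep the cyclins off, whereas p21 (Cdkn1a) and p27 (Cdkn1b), of the CIP/KIP family, bind whole cyclin-kinase complexes and also inhibit CDK2. In blood formation the 3 cyclins overlap in function, CDK6 is linked to the exit of stem cells from quiescence, and erythroid precursors rely on cyclin D3 for the timing of their last divisions.

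Of 8817 barcodes, 7645 passed the study's cell filter, with a median of 18696 UMIs (range 1592 to 49991). Levels are given as CPM, counts per 1000000 UMIs of a group of cells, and because each UMI is a 3′ tag of 1 captured molecule, no correction for gene length was made. Capture can differ between 3′ ends, so an order of levels between genes is an order of tags. Cells were placed in 8 gates by marker scores, and 5834 cells fell in a gate. They were also placed by the UMIs of 56 S and G2/M phase genes, none of them a described gene, counted at an equal depth of 5000 UMIs per cell: the low cycle gate held 1998 cells with at most 14 such UMIs and the high cycle gate 1980 cells with at least 36. These are gates on RNA and not measurements of phase. They cut a continuous range, with 744 cells within 2 UMIs of the lower limit and 642 within 2 of the upper, and 1188 cells lay within 0.05 of a marker score limit.

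The stem-like gate, led by Hlf, Mecom and Procr, was mostly low in cycle genes, with 79.6% of its 779 cells in the low cycle gate and 57 cells in the high. The erythroid-like gate was the reverse, with 60 of 1203 cells in the low gate and 63.4% in the high. All 10 stem and all 9 erythroid markers were highest in their own gate, but only 4 of 7 monocyte markers were, and in the monocyte-like gate the neutrophil list summed to 6520 CPM against 3071 for its own list. Marker levels and depth moved with the cycle gate. From the low to the high gate, the stem list fell from 2148 to 1177 CPM in stem-like cells while depth rose from 8022 to 16375 UMIs, the erythroid list rose from 5452 to 10111 CPM in erythroid-like cells with depth rising from 10616 to 33516 UMIs, and the dendritic list fell from 23727 to 12594 CPM in dendritic-like cells. In stem-like cells the neutrophil list summed to 410 CPM in the low cycle gate, 1176 CPM in the cells between the gates and 183 CPM in the high gate, and doublet calls made up 0.323%, 8.82% and 0% of these cells. The part of these shifts in the results below was not tested.

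Over all 7645 cells the kinases were the most abundant of the 9. Cdk6 stood at 373.6 CPM and Cdk4 at 276.6 CPM, with a UMI in 91.9% and 90.9% of cells. Ccnd3 at 141.2 CPM and Ccnd2 at 139.8 CPM had overlapping intervals, and Ccnd1 was lower at 46.2 CPM. Among the inhibitors, Cdkn1b stood at 52.4 CPM, Cdkn2d at 42.2 CPM, Cdkn2c at 20.3 CPM and Cdkn1a at 17.4 CPM. The near-equal totals of Ccnd2 and Ccnd3 came from different gates.

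Ccnd2 (chr6:127125162-127152193, minus strand, GRCm38) was highest in the immature and megakaryocytic gates. It stood at 301.7 CPM in megakaryocyte-like, 281 CPM in stem-like and 270.2 CPM in Flt3 progenitor-like cells, and the last 2 did not differ beyond counting error. The neutrophil lineage-like gate followed at 128 CPM, 2.10-fold below the Flt3 gate, then the basophil or mast-like gate at 110.5 CPM, the dendritic-like gate at 104 CPM and the monocyte-like gate at 100.1 CPM, where neither of the last steps exceeded counting error. Erythroid-like cells had the least, 59.9 CPM, and the highest gate was 5.03-fold above them (4.77 to 5.31).

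Ccnd3 (chr17:47505051-47599691, plus strand) had another order. Erythroid-like cells, the lowest for Ccnd2, led with 240.6 CPM, 1.49-fold above dendritic-like cells at 161 CPM. The next gates ran close together, from 154 CPM in megakaryocyte-like through 143 CPM in basophil or mast-like, 133 CPM in stem-like and 124 CPM in Flt3 progenitor-like to 120.0 CPM in monocyte-like cells, with no step between neighbours beyond counting error. Neutrophil lineage-like cells had 56.1 CPM, the least.

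Ccnd1 (chr7:144929931-144939925, minus strand) was high in 5 gates and low in the other 3. Dendritic-like cells had 147.5 CPM, followed by 95.1 CPM in megakaryocyte-like, 81.7 CPM in stem-like, 76.3 CPM in Flt3 progenitor-like and 68.3 CPM in monocyte-like cells. A 4.29-fold step then led down to 15.9 CPM in erythroid-like, 15.3 CPM in basophil or mast-like and 14.9 CPM in neutrophil lineage-like cells, which did not differ beyond counting error. At an equal depth of 5000 UMIs, a Ccnd1 UMI was seen in 44.0% of dendritic-like and 29.4% of stem-like cells, against 6.82% of erythroid-like and 4.63% of basophil or mast-like cells. Unthinned, those shares were 63.5%, 45.3%, 23.4% and 10.8%, at median depths that were lowest in the stem-like gate (8484 UMIs) and highest in the erythroid-like gate (32743 UMIs).

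**Figure D1:**
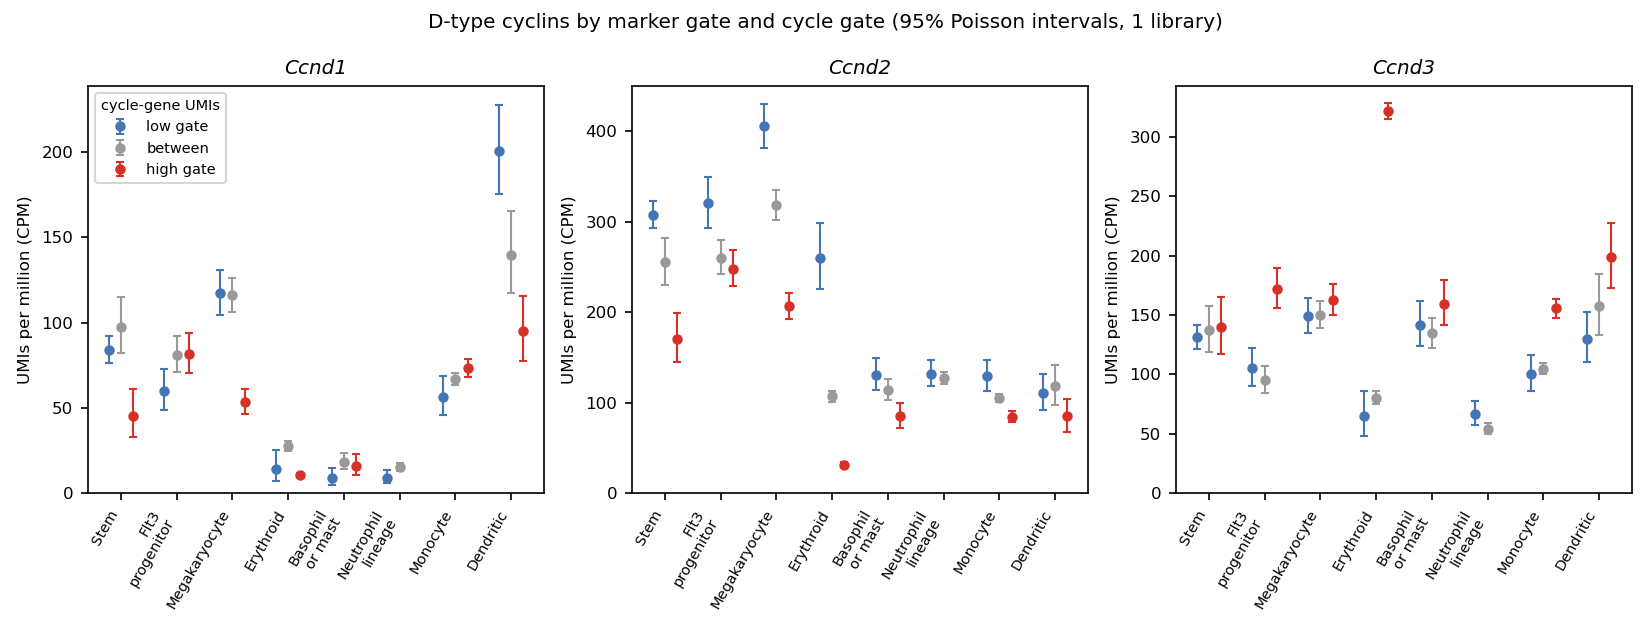
CPM of Ccnd1, Ccnd2 and Ccnd3 (vertical axes) in the 8 marker gates (horizontal axes), with blue, grey and red points for cells in the low cycle gate, between the gates and in the high cycle gate, and bars for 95% Poisson intervals of counting error. Ccnd2 fell from blue to red in stem-like (308 to 170.3 CPM), megakaryocyte-like (405 to 207 CPM) and erythroid-like cells (260.3 to 31.4 CPM), while Ccnd3 stood at 322 CPM in high-cycle erythroid-like cells. Groups under 50 cells are not drawn.

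Within the sum of D-type cyclin UMIs, Ccnd2 took the largest share in the stem-like (56.6%), Flt3 progenitor-like (57.4%), megakaryocyte-like (54.8%) and neutrophil lineage-like gates (64.4%). Ccnd3 took the largest share in the erythroid-like (76.0%), basophil or mast-like (53.2%), monocyte-like (41.6%) and dendritic-like gates (39.0%). In the dendritic-like gate Ccnd1 was close behind Ccnd3, at 35.7%. The family total was highest in megakaryocyte-like cells at 551 CPM and lowest in neutrophil lineage-like cells at 199 CPM, the gate where 39.0% of thinned cells had no D-type cyclin UMI at all.

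Cells of the low and the high cycle gate were compared within 7 marker gates, since the neutrophil lineage-like gate held only 20 cells in the high cycle gate. A gene was called higher or lower where its CPM differed at least 1.5-fold and it had at least 50 UMIs in both groups together, without use of the interval. In stem-like cells 4 of the 9 genes were called higher in the high cycle gate and 2 lower, against 12.9% higher and 14.6% lower of 9497 genes. In erythroid-like cells 3 were higher and 5 lower (background 22.3% and 28.2%), of which the lower call of Cdkn1a rested on 3 UMIs in the low gate.

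The other gates gave 3 higher and 1 lower in Flt3 progenitor-like (12.7% and 9.46% of all genes), 2 and 3 in megakaryocyte-like (8.84% and 6.46%), and 3 and 2 in monocyte-like cells (15.1% and 4.65%). Of the 8 genes with enough UMIs, 3 were higher and 1 lower in basophil or mast-like cells (11.1% and 6.24%), and 4 higher and 1 lower in dendritic-like cells (16.9% and 9.9%). Over all cells, regardless of marker gate, 3 were higher and 3 lower (14.6% and 31.5%). Where 1 gene was called lower its share of the 9 or 8 genes was close to the background, and little can be read from it.

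Ccnd2 fell with the cycle gate. Its CPM was lower in the high than in the low cycle gate in all 7 gates, beyond counting error in 6 of them and by at least 1.5-fold in 5. In megakaryocyte-like cells it went from 405 CPM through 318 CPM between the gates to 207 CPM, a ratio of 0.510 (0.464 to 0.559). In stem-like cells it went from 308 CPM through 255 CPM to 170.3 CPM (ratio 0.553, 0.468 to 0.651).

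The stem-like fall was one of share, not of molecules seen per cell. Low-cycle stem-like cells held 2.61 Ccnd2 UMIs each and high-cycle cells 2.84, while total UMIs per cell rose 2.04-fold. The UMIs per cell fell too in erythroid-like (3.4 to 1.04), megakaryocyte-like (5.59 to 3.86) and monocyte-like cells (2.22 to 1.91). They rose in Flt3 progenitor-like (3.76 to 5.32), dendritic-like (1.11 to 1.29) and basophil or mast-like cells (1.40 to 1.47). Outside the erythroid-like gate the fall in CPM depended on the genes of the cycle gate. With S phase genes alone Ccnd2 was above 1 in 4 of the 7 gates, at 2.81 in dendritic-like, 1.37 in monocyte-like, 1.36 in basophil or mast-like and 1.01 in Flt3 progenitor-like cells, and the stem-like and megakaryocyte-like ratios were 0.874 and 0.869. With G2/M genes alone it was below 1 in all 7 gates. The dendritic-like ratio was also above 1, at 2.27, between the lowest and highest 10% of cells by cycle-gene UMIs, and in thinned UMIs the stem-like ratio was 0.716.

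Ccnd3 was higher in the high cycle gate by at least 1.5-fold in erythroid-like (4.95, 3.76 to 6.65), Flt3 progenitor-like (1.63), monocyte-like (1.55) and dendritic-like cells (1.53). The last 2 calls were marginal: with S phase genes alone, G2/M genes alone and thinned UMIs the ratio was 1.03, 1.39 and 1.42 in monocyte-like and 1.44, 1.43 and 1.42 in dendritic-like cells. In stem-like cells it stood at 131 CPM, 137 CPM and 140 CPM from low to high (ratio 1.07, 0.878 to 1.28), and in megakaryocyte-like cells at 149 CPM and 163 CPM in the low and high gates (1.09, 0.959 to 1.24). For stem-like cells the counting interval thus ended at a rise of 1.28-fold.

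With these changes, and with S and G2/M genes together in the cycle gate, the Ccnd3 share of D-type cyclin UMIs was larger in high-cycle cells of every compared gate. It went from 25.1% to 39.3% in stem-like, 21.7% to 34.3% in Flt3 progenitor-like and 22.2% to 38.5% in megakaryocyte-like cells. In these 3 gates Ccnd2 still held the largest share in the high gate, at 47.9%, 49.4% and 48.9%. In erythroid-like cells the leading cyclin changed, with Ccnd2 at 76.7% (71.1% to 81.6%) in the low gate and Ccnd3 at 88.5% (87.8% to 89.1%) in the high gate. With S phase genes alone the Ccnd3 share fell in monocyte-like cells, where the Ccnd3 ratio was 1.03 against 1.37 for Ccnd2 and 1.996 for Ccnd1. In basophil or mast-like cells that setting gave 1.07 for Ccnd3 and 1.36 for Ccnd2.

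**Figure D2:**
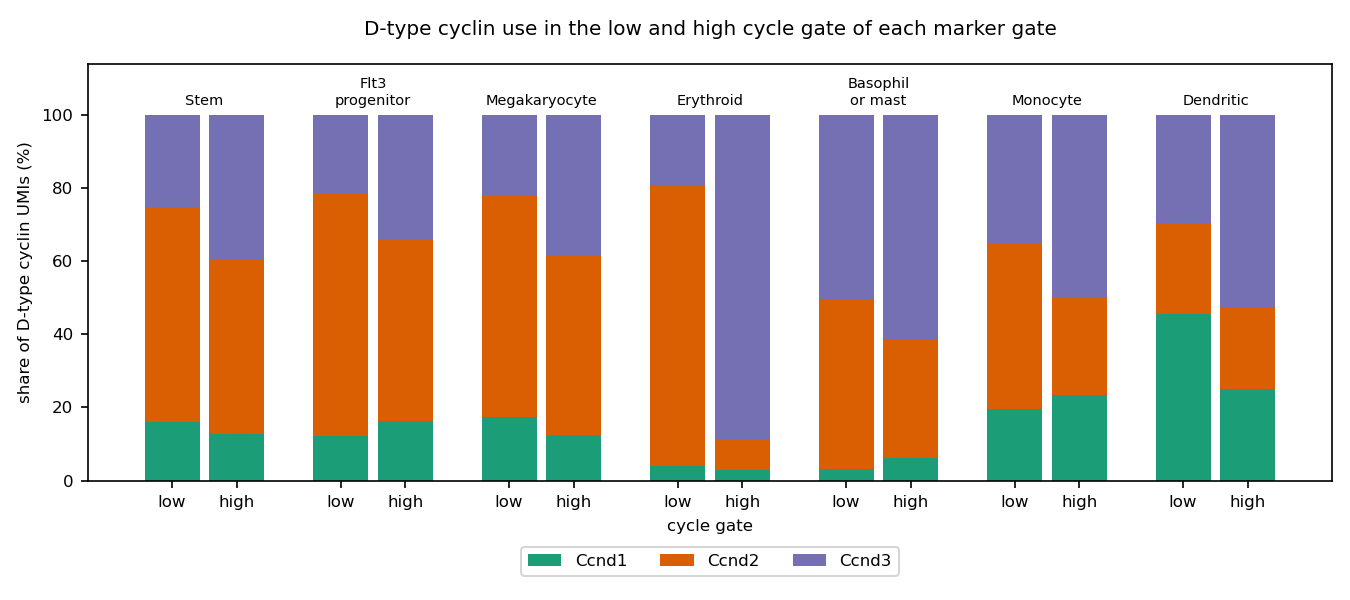
Stacked bars give the percent of D-type cyclin UMIs (vertical axis) that came from Ccnd1, Ccnd2 and Ccnd3 in the low and the high cycle gate of the 7 compared marker gates (horizontal axis). The Ccnd3 block is larger in the high gate of each pair, and in the erythroid-like pair it grows from 19.2% to 88.5%.

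The direction of Ccnd1 depended on the genes of the cycle gate in 4 of the 6 gates with enough UMIs. Its CPM was lower in the high cycle gate in megakaryocyte-like (117 to 53.3 CPM; ratio 0.454), dendritic-like (200.5 to 95.1 CPM; 0.474) and stem-like cells (83.9 to 45.2 CPM; 0.539, 0.384 to 0.738). It was slightly higher, under 1.5-fold, in Flt3 progenitor-like (1.36, 1.06 to 1.76) and monocyte-like cells (1.30, 1.05 to 1.62). With S phase genes alone the ratio was 1.36 in stem-like, 1.44 in megakaryocyte-like, 2.16 in Flt3 progenitor-like and 1.996 in monocyte-like cells. It was 0.932 in dendritic-like and 0.429 in erythroid-like cells. With G2/M genes alone it was below 1 in all 6 gates with enough UMIs, at 0.672 in Flt3 progenitor-like and 0.522 in monocyte-like cells. The erythroid-like ratio, with 11 UMIs in the low gate, was 0.742 with S and G2/M genes together. It was 0.431 with G2/M genes alone and 1.02 with stricter marker gates.

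Within the high cycle gate, cells were also split at the median S phase share of their cycle-gene UMIs into 990 S-led and 990 G2/M-led cells. Ccnd1 was higher in S-led cells of the Flt3 progenitor-like gate (2.35-fold, 1.74 to 3.21), the monocyte-like gate (1.66-fold) and the megakaryocyte-like gate (1.54-fold). In erythroid-like cells the interval of its ratio ran from 0.773 to 1.31. Of the 9 genes, 2 were called higher and 1 lower in S-led Flt3 progenitor-like cells (8.29% and 8.22% of all genes), 2 and 2 of 8 in megakaryocyte-like (7.09% and 10.2%), 2 and 2 in monocyte-like (6.31% and 7.91%), and none in either direction in erythroid-like cells (1.42% and 3.27%).

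Within the high cycle gate, the erythroid change in cyclins also followed erythroid marker level. The low cycle gate of these cells is not a match for the high one, since 53 of its 60 cells were among the 431 cells with the fewest erythroid marker UMIs. The gate was therefore split, after its values had been seen, into 3 groups of near-equal size by the UMIs of its own markers, and compared within the high cycle gate. There, from the lowest through the middle to the highest group (190, 236 and 337 cells), Ccnd2 stood at 73.1 CPM, 29.2 CPM and 8.20 CPM, and Ccnd3 at 137 CPM, 204 CPM and 525 CPM. Between the cycle gates Ccnd3 did not rise, at 77.6 CPM in the lowest and 78.0 CPM in the middle group. Ccnd2 stood at 126 CPM and 94.4 CPM in those cells.

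Within the high cycle gate the Ccnd3 share of D-type cyclin UMIs over the marker groups was 58.8%, 84.1% and 97.8%, and that of Ccnd2 31.3%, 12.0% and 1.53%. Both marker level and cycle gate went with the share: in the lowest marker group Ccnd3 held 19.6% in the low cycle gate, 33.3% between the gates and 58.8% in the high gate. Neither split held the other factor fixed. Mki67, a proliferation gene that is part of the cycle list, rose over the marker groups, from 498 CPM through 669 CPM to 1077 CPM over all cycle states. Within the high cycle gate it rose from 674 CPM through 864 CPM to 1185 CPM. In the lowest marker group the erythroid marker Hba-a1 rose with the cycle gate, from 25.7 CPM through 88.3 CPM to 269 CPM. Cycling and marker level thus cannot be told apart in full. Doublet calls made up 8.82%, 4.15% and 4.15% of the groups over all cycle states.

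**Figure D3:**
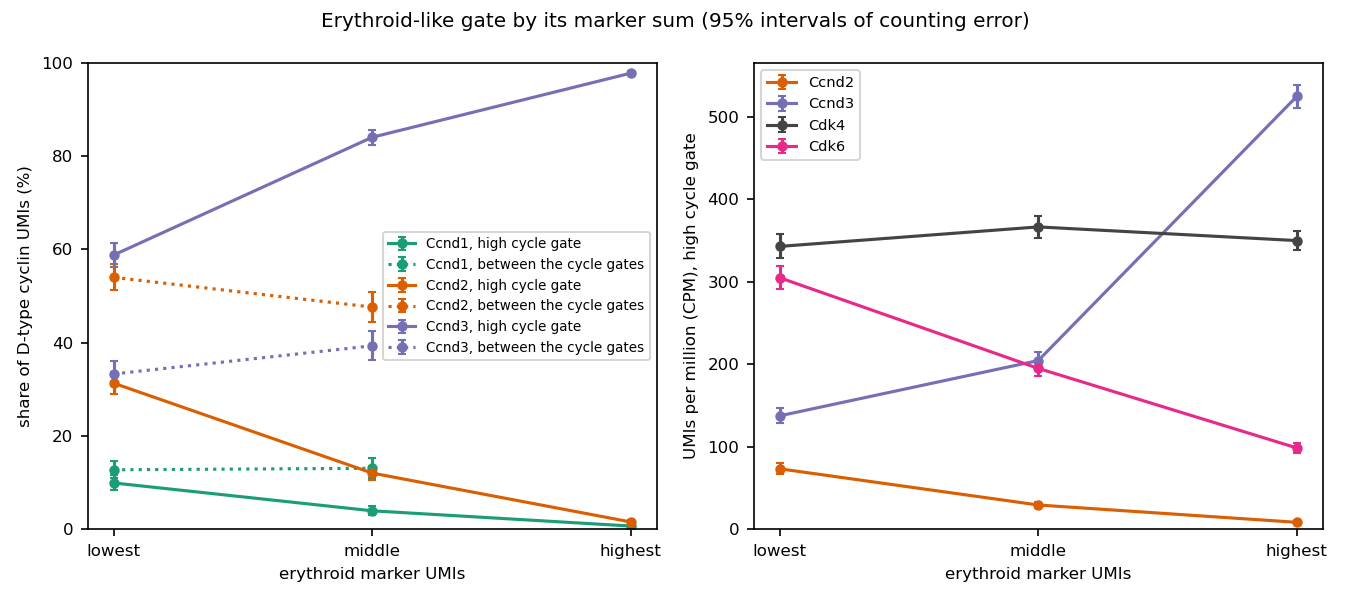
Erythroid-like cells in 3 groups by erythroid marker UMIs (horizontal axes). The left panel gives the percent of D-type cyclin UMIs from each cyclin, with solid lines for the high cycle gate and dotted lines for cells between the gates, and the right panel gives CPM in the high cycle gate, with bars for 95% intervals of counting error. Ccnd3 rose from 137 to 525 CPM as Ccnd2 and Cdk6 fell, and Cdk4 stayed between 343 and 367 CPM.

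The cyclins were read in single cells at equal depth as well. In high-cycle erythroid-like cells a Ccnd3 UMI was seen in 32 of 93 cells with a Ccnd2 UMI (34.4%) and in 465 of 670 cells without one (69.4%). In low-cycle erythroid-like cells it was seen in 13 of 44 (29.5%) and 5 of 16 (31.25%). Within the high cycle gate both cyclins moved with marker level, in opposite directions, and the part of this in the difference was not tested. In stem-like cells the shares were alike, 256 of 557 cells (46.0%) with and 100 of 222 (45.05%) without Ccnd2. Cells with UMIs of all 3 cyclins made up 12.1% of megakaryocyte-like, 8.86% of stem-like and 0.914% of erythroid-like cells. UMIs of these genes in a cell may include free RNA, whose part was not tested.

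The kinases differed in how much they varied. Cdk4 (chr10:127063534-127067920, plus strand) varied little, 1.98-fold over the gates, from 173 CPM in stem-like cells, which did not differ beyond counting error from dendritic-like cells at 177 CPM, to 343.5 CPM in erythroid-like cells. Cdk6 (chr5:3341485-3531008, plus strand) varied 3.59-fold, from 162 CPM in dendritic-like and 242 CPM in erythroid-like to 530.2 CPM in basophil or mast-like, 567 CPM in megakaryocyte-like and 581 CPM in Flt3 progenitor-like cells. As a share of Cdk4 and Cdk6 UMIs, Cdk6 made up 73.6% in basophil or mast-like, 72.3% in megakaryocyte-like, 65.8% in stem-like and 41.4% in erythroid-like cells.

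The kinases also differ in the sequence before their RefSeq starts, which is shown because they are the paralogue pair with unlike changes below. The E-box letters CACGTG, a palindrome bound by MYC-family and other factors, stood 4 times in the Cdk4 promoter window and once in that of Cdk6. The windows are those of RefSeq on GRCm38.p6, 250 bases before to 50 after a start, and 7.15% of all 32851 windows held CACGTG, 8 of them (0.0244%) at least 4 times. The first 250 bases of each are printed 5′ to 3′, with CACGTG in capitals.
Cdk4: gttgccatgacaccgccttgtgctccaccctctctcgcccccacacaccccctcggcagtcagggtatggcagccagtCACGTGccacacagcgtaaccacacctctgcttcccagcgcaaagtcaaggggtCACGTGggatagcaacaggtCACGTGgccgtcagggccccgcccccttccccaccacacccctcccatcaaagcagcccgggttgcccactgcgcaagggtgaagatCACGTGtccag
Cdk6: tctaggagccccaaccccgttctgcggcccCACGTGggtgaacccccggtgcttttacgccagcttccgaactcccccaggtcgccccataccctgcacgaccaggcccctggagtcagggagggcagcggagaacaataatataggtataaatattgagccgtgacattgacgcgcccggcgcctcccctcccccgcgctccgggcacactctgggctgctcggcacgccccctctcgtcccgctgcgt
The Cdk4 stretch lies at chr10:127063285-127063534 and the Cdk6 stretch at chr5:3343643-3343892, both on the plus strand. Of the other 5 genes with a promoter entry, Cdkn2c held CACGTG once. The E2F letters TTTGGCGC and TTTCGCGC, searched on both strands, were in none of the promoters of the 7 genes and in 0.514% and 0.323% of all windows. A match is a description of letters, and none of these data measured binding.

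In stem-like cells both kinases rose with the cycle gate, Cdk6 more than Cdk4. Cdk6 stood at 234 CPM in low-cycle cells, 529 CPM between the gates and 577 CPM in high-cycle cells, a ratio of 2.47 (2.23 to 2.73), and it kept a ratio of 1.84 to 2.67 over 11 alternative settings. Cdk4 stood at 138 CPM, 256 CPM and 241 CPM (ratio 1.74, 1.49 to 2.02), and its ratio was 1.37 with G2/M genes alone. Per cell, Cdk6 rose from 1.99 to 9.63 UMIs and Cdk4 from 1.17 to 4.02 UMIs, both more than the 2.04-fold rise in depth.

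Cdk6 was called higher in no other gate. Its ratio was 1.02 (0.952 to 1.09) in megakaryocyte-like, 1.04 (0.952 to 1.13) in Flt3 progenitor-like, 1.25 in dendritic-like, 0.892 in basophil or mast-like and 0.784 in monocyte-like cells. The dendritic-like ratio passed 1.5-fold under 3 alternatives, at 2.67 with S phase genes alone, 1.90 between the lowest and highest 10% of cells, and 1.63 in thinned UMIs. The low-cycle stem-like level of 234 CPM was thus below the 565 CPM of low-cycle megakaryocyte-like cells, while the high-cycle levels of those gates, 577 and 575 CPM, were close. In erythroid-like cells Cdk6 fell with the cycle gate, from 703 CPM through 339 CPM to 182 CPM (ratio 0.259, 0.237 to 0.283), and Cdk4 rose from 221 CPM to 354 CPM (1.60, 1.38 to 1.87).

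The Cdk6 share in erythroid-like cells fell from 76.1% to 34.0% between the cycle gates. It fell with marker level as well: within the high cycle gate Cdk6 stood at 305 CPM, 195 CPM and 98.4 CPM over the marker groups, and Cdk4 at 343 CPM, 367 CPM and 350.0 CPM. Cdk4 was above 1 beyond counting error in 6 of the 7 compared gates, and its ratio in monocyte-like cells was 0.951 (0.861 to 1.05). The megakaryocyte-like ratio of 1.27 turned to 0.879 with G2/M genes alone, and the basophil or mast-like ratio of 1.54 lay under 1.5 in 7 of 11 alternatives.

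**Figure D4:**
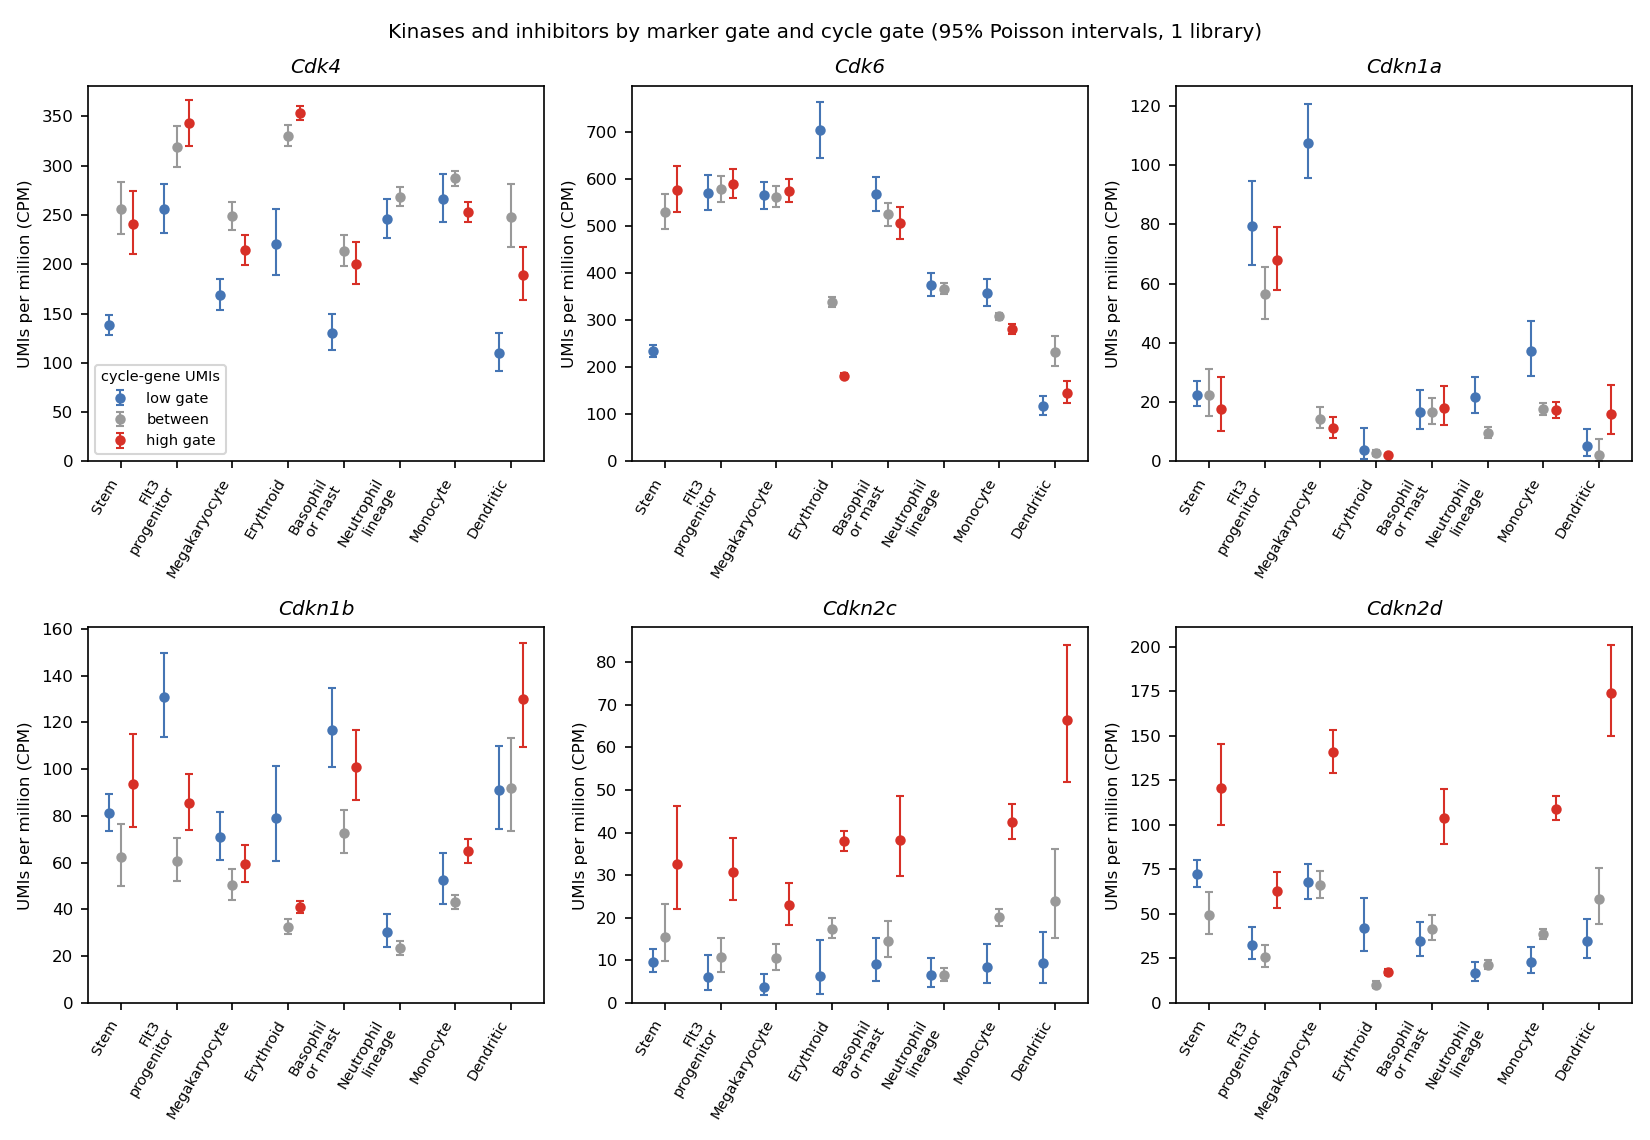
CPM of the 2 kinases and the 4 inhibitors (vertical axes) by marker gate (horizontal axes), with blue, grey and red points for the low cycle gate, between the gates and the high cycle gate, and bars for 95% Poisson intervals of counting error. Cdk6 separates blue from red in the stem-like (234 to 577 CPM) and, in the other direction, the erythroid-like gate (703 to 182 CPM), and Cdkn2c rises from blue to red in every compared gate.

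Of the inhibitors, Cdkn2c (chr4:109660876-109667189, minus strand), which encodes p18, had the most uniform change. It was at least 1.5-fold higher in the high than in the low cycle gate in all 7 gates, with ratios from 3.37 (2.08 to 5.36) in stem-like to 7.12 (3.75 to 14.9) in dendritic-like cells and a median of 5.02. Its levels were low throughout, from 9.68 to 32.6 CPM in stem-like and from 6.38 to 38.0 CPM in erythroid-like cells. The low gates held few UMIs of it, 5 in erythroid-like and 51 in stem-like cells.

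In most gates the rise depended on G2/M genes in the cycle gate. With the cycle gate set on G2/M genes alone, the ratio was above 1 in all 7 gates (2.86 to 6.23), and on S phase genes alone it was above 1 in 4 and below 1 in 3 (0.969 in stem-like, 0.878 in basophil or mast-like and 0.627 in monocyte-like cells). Erythroid-like cells were unlike these, at 6.58 with S phase genes alone and 4.54 with G2/M genes alone. Flt3 progenitor-like cells also kept the rise, at 2.39 and 2.86. Within the high gate, G2/M-led cells had more Cdkn2c beyond counting error in 1 of 4 gates. In monocyte-like cells, the S-led over G2/M-led ratio of Cdkn2c was 0.418 (0.323 to 0.535). The ratio was 0.961 (0.589 to 1.56) in Flt3 progenitor-like, 0.894 (0.563 to 1.40) in megakaryocyte-like and 0.893 (0.782 to 1.02) in erythroid-like cells.

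Cdkn2d (chr9:21288410-21291407, minus strand), which encodes p19, was highest in megakaryocyte-like (91.7 CPM) and dendritic-like cells (87.9 CPM), which did not differ beyond counting error, and lowest in erythroid-like cells (15.4 CPM). It was higher in the high cycle gate in 6 gates, from 1.67 (1.34 to 2.06) in stem-like to 4.99 (3.54 to 7.19) in dendritic-like cells, and lower in erythroid-like cells (0.406, 0.285 to 0.598). The stem-like values were 72.3 CPM, 49.4 CPM and 121 CPM from low to high, so cells between the gates had the least. With S phase genes alone the ratio was below 1 in all 7 gates, from 0.428 to 0.885.

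Over all cycle states Cdkn2c made up 66.7% of the UMIs of this INK4 pair in erythroid-like cells (64.5% to 68.9%) against 15.6% in stem-like and 12.5% in megakaryocyte-like cells. These shares mix cycle states that differ between gates. In low-cycle cells Cdkn2c held 5 of 38 UMIs in erythroid-like (13.2%, 4.41% to 28.1%) and 51 of 432 in stem-like cells (11.8%), which do not differ beyond counting error, and in high-cycle cells it held 69.0% and 21.2%. Cdkn2c was highest in dendritic-like (32.6 CPM) and erythroid-like cells (30.9 CPM), which did not differ beyond counting error, and lowest in neutrophil lineage-like cells (7.09 CPM).

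Cdkn1b (chr6:134920401-134925513, plus strand), which encodes p27, a brake that acts in resting cells, was highest in dendritic-like cells (104 CPM) and lowest in neutrophil lineage-like cells (24.95 CPM). Basophil or mast-like (90.7 CPM), Flt3 progenitor-like (85.8 CPM) and stem-like cells (79.1 CPM) followed each other with no step beyond counting error, and megakaryocyte-like cells were 1.35-fold below the last of them. In stem-like cells it stood at 81.2 CPM in low-cycle and 93.5 CPM in high-cycle cells (ratio 1.15, 0.906 to 1.45), and the ratio was 0.433 with S phase genes alone and 1.57 with G2/M genes alone. It was lower in the high gate by at least 1.5-fold in Flt3 progenitor-like (131 to 85.4 CPM; 0.653) and erythroid-like cells (79.1 to 40.9 CPM; 0.516). The ratio was 1.43 in dendritic-like, 1.24 in monocyte-like, 0.865 in basophil or mast-like and 0.836 in megakaryocyte-like cells. With S phase genes alone it was below 1 in all 7 gates. With G2/M genes alone it was above 1 in 4 of the 7, at 1.60 in monocyte-like and 1.51 in dendritic-like cells, and the Flt3 progenitor-like ratio was 0.856.

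Cdkn1a (chr17:29090976-29100727, plus strand), which encodes p21 and is a target of p53, was the rarest and the most uneven of the 9. It stood at 65.8 CPM in Flt3 progenitor-like, 36.0 CPM in megakaryocyte-like and 22.0 CPM in stem-like cells, and at 2.29 CPM in erythroid-like cells. At equal depth 25.2% of Flt3 progenitor-like cells had a UMI (unthinned 50.6%), against 7.42% of megakaryocyte-like (14.7%), 5.65% of stem-like (10.4%) and 1.25% of erythroid-like cells (4.74%), the gate with the lowest share.

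In the Flt3 progenitor-like gate Cdkn1a was spread over many cells, with 16.04% of its UMIs in the 10 cells with the most. In megakaryocyte-like cells 10 cells held 57.2% of the UMIs and in stem-like cells 50.9%. The megakaryocyte-like fall with the cycle gate, from 108 to 11.2 CPM (ratio 0.104, 0.0733 to 0.144), thus came from few cells: 29 of 196 low-cycle cells had a UMI, 1 of them had 36, and 10 held 78.0%. The interval takes each UMI as independent and does not cover such clustering.

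**Figure D5:**
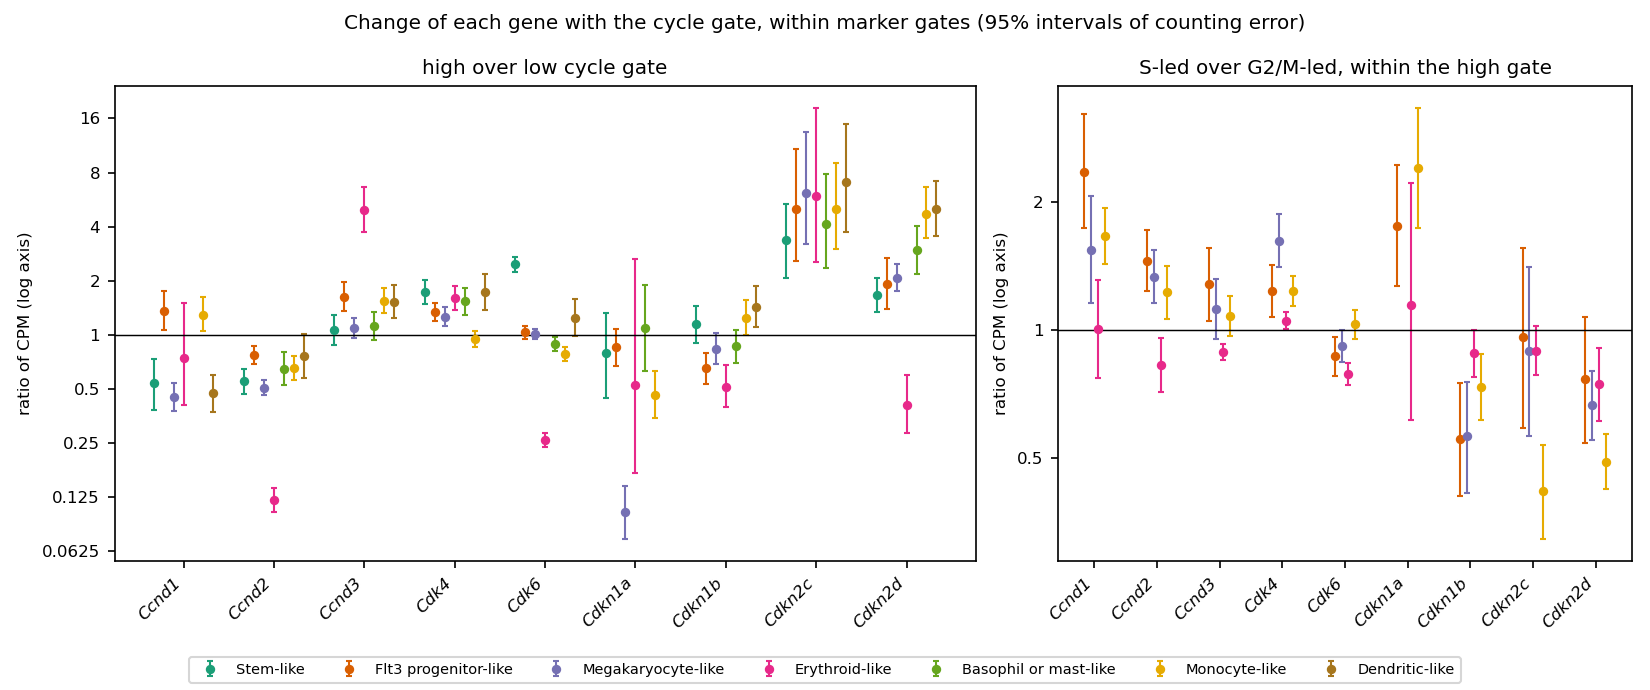
Ratios of CPM on log axes for each gene (horizontal axes), in the left panel the high over the low cycle gate within 7 marker gates and in the right panel S-led over G2/M-led cells of the high gate within 4, with colours for the marker gates and bars for 95% intervals of counting error; ratios without 50 UMIs in both groups together are not drawn. Cdkn2c lies above 1 in every gate of the left panel (3.37 to 7.12), Cdk6 above it in stem-like (2.47) and far below it in erythroid-like cells (0.259).

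Other genes of the pathway were followed as a list of 35 regulators of the G1 to S and G2 to M steps. In stem-like cells 28 had enough UMIs, of which 15 were called higher in the high cycle gate, 4 lower and 9 neither, with a median ratio of 2.06 against 1.01 over all genes. This list holds partners of the genes that set the gate, so its direction is not separate evidence of cycling. The highest ratios were those of Cdkn3, a phosphatase that acts on CDK (49.8, 24.99 to 113), the mitotic cyclins Ccnb2 (31.9) and Ccnb1 (21.4), and their kinase Cdk1 (24.8).

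The lowest were those of Cdkn1c (0.501, 0.342 to 0.712), which encodes the CIP/KIP inhibitor p57 of quiescent stem cells, E2f5 (0.542), Cdk7 (0.543) and Rbl2, a retinoblastoma relative (0.617). Cdkn1c stood at 71.4 CPM in low-cycle and 35.7 CPM in high-cycle stem-like cells. Cdkn2a and Cdkn2b, the other INK4 genes, had 0 UMIs in both stem-like groups. In the other gates 16 of 28 list genes were higher and 1 lower in Flt3 progenitor-like, 17 and 2 of 31 in megakaryocyte-like, 21 and 5 of 32 in erythroid-like, 12 and 1 of 27 in basophil or mast-like, 16 and 1 of 32 in monocyte-like, and 11 and 0 of 20 in dendritic-like cells.

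Over the 23 groups of at least 50 cells formed by marker gate and cycle gate, Ccnd2 and Ccnd3 levels had a Pearson correlation of -0.31 on the log2(CPM + 1) scale, Ccnd2 and Cdk6 of 0.60, and Ccnd3 and Cdkn2c of 0.63. The groups share 1 library and differ in depth, and these values are descriptions. Among 9750 genes with at least 500 UMIs, those most like Ccnd2 were Ankrd10 (0.90), Rest (0.88) and Zfp444 (0.88), and those most like Ccnd3 were Herc2 (0.83), Ctdnep1 (0.75) and Lmf2 (0.75). Most like Ccnd1 were Hdac9 (0.91), Sik1 (0.89) and Rnf150 (0.87), and most like Cdk6 were Usp11 (0.88), Trappc6a (0.84) and Zfp771 (0.83).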

How the data were processed

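Per the methods, cells were captured with a 10x Chromium 3′ kit, while the label's extraction text describes a bulk kit. The authors deposited raw UMI counts per gene and barcode, made with Cell Ranger 6.0.2 on mm10 per the submitters' processing notes. Whether counting used strand was not given in the sources used here, and 6 of the 9 genes overlap a gene on the opposite strand (Tspan31 for Cdk4, Bysl for Ccnd3). Coordinates are those of GENCODE genes on GRCm38.

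From the counts, 7645 barcodes (151852381 UMIs) were kept by the study's limits, a depth above 1000 UMIs and below 50000, more than 1000 but fewer than 6500 genes detected, and less than 7% mitochondrial UMIs. Scrublet in scanpy 1.11.5 called 265 doublets, which were kept because the methods name no removal. A total of 99 cells were too shallow to thin to 5000 UMIs and had no cycle gate. A marker gate needed a mean capped z score of 0.4 and a lead of 0.1 over the next list, limits relaxed after gate sizes were seen so that 50 cells remained per group. Levels have exact Poisson intervals, shares Clopper-Pearson intervals and ratios conditional binomial intervals (Python 3.11.15, numpy 2.4.6, scipy 1.17.1). In simulated Poisson counts, independent as the intervals assume, 96.1% of the ratio intervals held the true value. Clustering of UMIs in cells was not simulated. The intervals cover counting error only.

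The 9 genes and all lists were chosen with earlier results of these data known. Named besides them were the 4 pathway genes with the highest and the 4 with the lowest stem-like ratio, Cdkn1c, Cdkn2a and Cdkn2b, the 3 genes most like each of Ccnd1, Ccnd2, Ccnd3 and Cdk6, and markers. The p53 target list is reported in the closing section. Alternatives changed the cell filter, thinning, cycle gate, marker gates and doublets, and the erythroid marker groups were added after seeing the data. Protein sequences were not used here.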

Additional observations from a re-analysis of the deposited data

Results flagged for a closer look

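Barcodes that the cell filter removed still carried these genes. The 9 genes together stood at 1010.6 CPM (992.8 to 1029) in the 213 barcodes at or above an upper limit, whose median depth was 54247 UMIs, and at 843.6 CPM (813.4 to 874.8) in the 959 others, whose median depth was 2163 UMIs and median mitochondrial share 51.4%. In the kept cells they stood at 1109.8 CPM. Both values were noted because they come from barcodes that no comparison used and lie above the limit that a count of 0 allows.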

How the results depend on the processing

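Over 222 results and 11 alternatives, 2401 values were computed, of which 1994 stayed within their counting interval (counts of genes, within 1.5 times), 393 moved further and 14, all with S phase genes alone, were called ratios that crossed 1. Counting uncalled ratios too, 50 of 644 within-gate values for the 9 genes crossed 1, among them 24 of 61 with S phase genes alone and 7 of 61 with G2/M genes alone, and 52 of 387 values of called ratios lost the call. The 14 were in stem-like cells Ccnd1 1.36, Cdkn2c 0.969 and Cdkn2d 0.849; in Flt3 progenitor-like cells Cdkn2d 0.885; in megakaryocyte-like cells Ccnd1 1.44 and Cdkn2d 0.768; in basophil or mast-like cells Ccnd2 1.36, Cdkn2c 0.878 and Cdkn2d 0.614; in monocyte-like cells Ccnd2 1.37, Cdkn1a 1.17, Cdkn2c 0.627 and Cdkn2d 0.495; and in dendritic-like cells Cdkn2d 0.824. The Cdk6 share of stem-like cells was 67.3% with a stricter cell filter and 63.8% in thinned cells. The stem-like count of the 9 genes was 2 higher and 1 lower in thinned counts, and again 2 higher and 1 lower with S phase genes alone. In thinned counts Cdkn2c had too few UMIs, and the ratios of Cdkn2d (1.42) and Ccnd2 (0.716) no longer reached 1.5-fold. The pathway list had 2 lower genes with the stricter cell filter, with stricter marker gates and with G2/M genes alone. The cause was not tested. Alternatives took groups down to 20 cells. No paired analysis was possible because there was 1 library, which also left no replicate to leave out. Genes under 50 UMIs in both groups together, such as Ccnd1 in basophil or mast-like cells, could not be called.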

Other observations

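Targets of p53 moved with Cdkn1a in the megakaryocyte-like gate. Of 8 targets (Mdm2, Ccng1, Phlda3, Zmat3, Bax, Eda2r, Trp53inp1 and Sesn2), the 6 with enough UMIs there were each at least 1.5-fold lower in the high than in the low cycle gate, with a median ratio of 0.287 against 1.01 over all genes (6.46% of all genes were lower). The targets summed to 792 CPM in the 49 megakaryocyte-like cells with a Cdkn1a UMI at equal depth and to 194 CPM in the 611 without. In stem-like cells the sums were 373 CPM (44 cells) and 190 CPM (735 cells). In Flt3 progenitor-like cells, where Cdkn1a was highest, they were 170 CPM (101 cells) and 180 CPM (300 cells), so the targets did not go with Cdkn1a in that gate.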
